A study of Mus musculus with 17 samples.

Results

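The orbitofrontal cortex (OFC) was set against the medial prefrontal cortex (mPFC) in mice classed as renouncers. The set was fixed by the sample labels alone: 3 OFC and 3 mPFC dissections, 6 of the 17 samples of the series. All samples came from the DAT-cre mouse line, in which Cre recombinase is made under control of the dopamine transporter gene and so in dopamine neurons. The tissue was taken once the animals had been through oDASS, optogenetic self-stimulation of dopamine neurons, which serves as a model of addiction. Renouncers are the animals that the study classed as not addicted, and perseverers those it classed as addicted. A further 3 OFC and 3 mPFC dissections from perseverers, also DAT-cre and also after oDASS, were used for a second, separate view of the same region difference. The labels used here give no age or sex, and they do not say which libraries share an animal, nor that the 3 libraries of a group came from 3 animals. The p-values below therefore measure the spread between libraries, which may in part be technical.

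Both regions are parts of frontal cortex without a thick granular layer in the mouse. The OFC lies above the olfactory structures and is known for tracking the value of expected outcomes, while the mPFC lies along the midline and is known for action control and for responses to threat. Both hold glutamatergic projection neurons in layers, several classes of inhibitory interneuron, and glia. Cortical areas share most of their cell types and differ in smaller sets of genes for adhesion, peptides, receptors and channels.

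RNA was read as bulk libraries of between 12392731 and 20945108 counts assigned to genes, and the 6 renouncer libraries span that same range. Each region was deposited as a table of 25239 genes, of which 15025 had enough counts to be tested. Levels are given below as CPM, counts scaled to a common library size, and they may be compared between libraries but not between genes of different length. Fold changes are OFC over mPFC on the log2 scale. Markers of cortical excitatory neurons, among them Slc17a7, the vesicular glutamate transporter, summed to 3159, 3597 and 4132 CPM (lowest, median and highest) in OFC and to 2969, 3487 and 3753 CPM in mPFC, so that both labels stand on cortical tissue. No marker of any of the 12 cell types examined was at 0 in all 6 libraries.

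A small set of genes separated OFC from mPFC in renouncers in the main fit, and its size depended on the fit. Of 15025 genes, 5 were higher in OFC and 5 were lower in OFC at an adjusted p under 0.05 (edgeR quasi-likelihood test, Benjamini-Hochberg adjustment over all genes tested). This is 0.0666% of the genes tested, or 0.0333% higher and 0.0333% lower, and 1020 genes had an unadjusted p under 0.05. The genes higher in OFC were Tmem215, Vamp1, Pde8b, Scn4b and Plcxd2, with levels in OFC between 1.74 and 3.78 times those in mPFC. The genes lower in OFC were Lypd1, Gpr39, Grp, St6galnac5 and Pcdh19, between 1.94-fold and 5.90-fold lower. For 5 of the 10 the adjusted p was 0.0479, just inside the threshold. Without any 1 of the 3 OFC libraries, or without mPFC library 1 or 2, only 3 genes passed (Lypd1, Gpr39 and Grp). Through the shared estimate of spread, 4 passed without OFC perseverer library 1 or 2, and 31 without mPFC perseverer library 3. With all 12 libraries, 22 genes passed with limma voom and 109 with DESeq2. A fit that paired libraries by replicate number, which the labels do not tie to an animal, gave 143.

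The clearest difference lay in a pair of neighbouring genes. Lypd1 encodes a membrane-anchored protein of the Ly6 family that binds nicotinic acetylcholine receptors. Its level was 45.8, 60.9 and 55.2 CPM in the OFC libraries, against 179, 193 and 184 CPM in the mPFC libraries. The 3 OFC libraries lay far below the 3 mPFC libraries, with no overlap. The log2 fold change was -1.78 ± 0.15 (SE), with an adjusted p of 7.85e-05 by edgeR. Gpr39, which encodes a zinc-sensing G protein-coupled receptor, had 31.2, 40.8 and 38.1 CPM in OFC, against 123, 136 and 128 CPM in mPFC. Its log2 fold change was -1.81 ± 0.15 (SE), also with an adjusted p of 7.85e-05 by edgeR.

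These may not be 2 independent results. In the GENCODE annotation of GRCm38, Gpr39 lies on the forward strand at chr1:125676995-125873862 and Lypd1 on the reverse strand at chr1:125867622-125913101, so that the ends of the 2 genes overlap. Their last exons share chr1:125872370-125873571, a stretch of 1202 bases that makes up 39.9% of the exon bases of Gpr39 and 17.1% of those of Lypd1. The library kits named in the labels do not mark the strand, so reads from this stretch cannot be assigned to one gene or the other. The Gpr39 count divided by the Lypd1 count lay between 0.650 and 0.703 in all 12 dissections, although the Lypd1 count itself ran between 793 and 2969. The share of each gene's counts that belongs to the other was not tested. How reads in the stretch were counted is not known here either. The 2 values are therefore read as 1 difference at this locus, and its division between the genes is uncertain. Both genes are still counted among the 10 past the threshold.

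**Figure D1:**
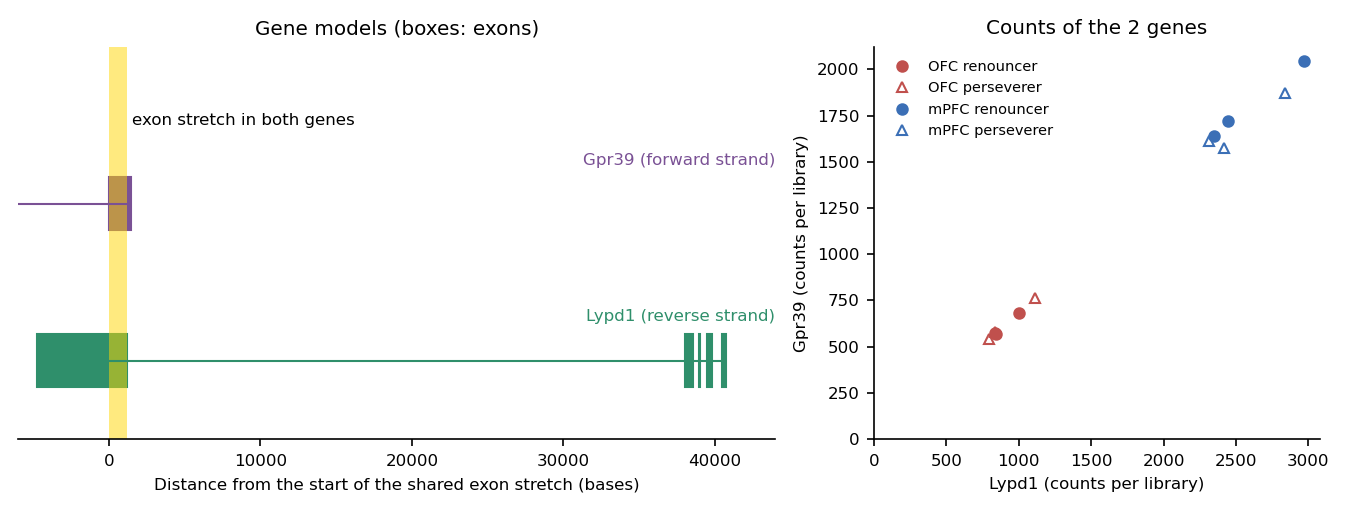
Left: exons (boxes) of Gpr39 and Lypd1 along the chromosome, as distance in bases from the start of the exon stretch that both genes hold (yellow, 1202 bases); the line of Gpr39 runs on to the left. Right: counts of Gpr39 against counts of Lypd1 in the 12 dissections, which fall on 1 line, with the 6 OFC libraries (793 to 1114 Lypd1 counts) below the 6 mPFC libraries (2315 to 2969).

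The promoters of the pair are shown because the 2 genes start at opposite ends of the locus, and those of Vamp1 and Scn4b because both genes were higher in OFC. Each is the 250 bases before a start of transcription in RefSeq on GRCm38.p6, written 5′ to 3′ on the strand of the gene. The windows are chr1:125912929-125913178 on the reverse strand for Lypd1 (1 of 3 starts in the table), chr1:125676746-125676995 on the forward strand for Gpr39, chr6:125215331-125215580 on the forward strand for Vamp1 and chr9:45138374-45138623 on the forward strand for Scn4b. The starts are those of RefSeq; for Lypd1, Vamp1 and Scn4b they differ from the outermost GENCODE start, so that these windows lie in part or mostly inside the gene as GENCODE draws it. Capitals mark every match, on either strand, to 4 motifs.
Lypd1: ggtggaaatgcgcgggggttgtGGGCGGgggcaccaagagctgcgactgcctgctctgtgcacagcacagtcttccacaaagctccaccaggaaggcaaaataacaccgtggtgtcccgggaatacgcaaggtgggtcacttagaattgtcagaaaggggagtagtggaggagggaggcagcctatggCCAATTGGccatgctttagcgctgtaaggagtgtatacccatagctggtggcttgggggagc
Gpr39: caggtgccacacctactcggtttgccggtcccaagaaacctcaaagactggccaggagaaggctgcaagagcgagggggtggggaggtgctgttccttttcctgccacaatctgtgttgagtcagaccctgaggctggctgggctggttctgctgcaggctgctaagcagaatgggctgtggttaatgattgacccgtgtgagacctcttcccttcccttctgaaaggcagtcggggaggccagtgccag
Vamp1: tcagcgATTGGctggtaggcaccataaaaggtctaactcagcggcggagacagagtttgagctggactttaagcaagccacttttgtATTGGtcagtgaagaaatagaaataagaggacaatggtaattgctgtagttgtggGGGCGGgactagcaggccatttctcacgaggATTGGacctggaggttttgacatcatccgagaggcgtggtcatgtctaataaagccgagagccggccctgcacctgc
Scn4b: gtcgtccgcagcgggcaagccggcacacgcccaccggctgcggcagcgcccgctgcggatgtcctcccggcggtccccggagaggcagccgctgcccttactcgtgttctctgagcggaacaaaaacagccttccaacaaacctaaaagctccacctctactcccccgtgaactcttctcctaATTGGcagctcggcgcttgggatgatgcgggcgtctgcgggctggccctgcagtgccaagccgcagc
The motifs were the TATA box TATAAA, the CCAAT box CCAAT, the GC box GGGCGG and the cyclic AMP response element TGACGTCA. The Lypd1 window holds a CCAAT box on each strand, 62 and 59 bases before the start and overlapping each other, and a GC box at 228. The Gpr39 window holds none of the 4. The Vamp1 window holds 3 CCAAT boxes on the reverse strand, at 244, 163 and 77 bases, and a GC box at 108, and the Scn4b window 1 CCAAT box on the reverse strand at 67. Over all 32851 promoter windows, 33.8% hold a CCAAT box, 32.7% a GC box, 12.4% a TATA box and 1.55% a cyclic AMP response element, so that these are common matches. Of the 10 genes, 8 have a promoter in the table.

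Grp had the largest fold change among the 10 genes. It encodes gastrin-releasing peptide, a bombesin-like neuropeptide that excites interneurons carrying its receptor. Its level was 5.45, 5.48 and 5.50 CPM in OFC, against 29.0, 46.9 and 21.2 CPM in mPFC. The OFC libraries were almost the same and the mPFC libraries spread widely, with all 3 well above OFC. Grp fell by 2.56 ± 0.28 on the log2 scale (SE, adjusted p = 0.00122, edgeR). It lies on chromosome 18, positions 65872820 to 65886596, and shares no exon base with another counted gene.

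The other genes lower in OFC were St6galnac5 and Pcdh19. St6galnac5 encodes a sialyltransferase that adds sialic acid to gangliosides, lipids of the neuronal membrane (chr3:152817081-152982246). It had 63.4, 54.5 and 54.2 CPM in OFC, against 123, 113 and 97.6 CPM in mPFC (log2 fold change -0.96 ± 0.15 SE, adjusted p = 0.0360, edgeR). Pcdh19 encodes a protocadherin, an adhesion protein whose loss causes an epilepsy in humans (chrX:133582860-133688987). It had 16.8, 13.1 and 15.03 CPM in OFC, against 28.8, 35.7 and 39.2 CPM in mPFC (log2 fold change -1.20 ± 0.20 SE, adjusted p = 0.0479, edgeR). In both genes every OFC library was below every mPFC library. Neither held its call in most fits that left out 1 of the 12 libraries: St6galnac5 passed in 5 of 12 and Pcdh19 in 2 of 12.

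Among the genes higher in OFC, Vamp1 and Scn4b belong to the machinery of fast firing and release. Vamp1 encodes synaptobrevin 1, a vesicle protein needed for fusion at nerve endings (chr6:125215551-125245964). It had 141, 123 and 130 CPM in OFC, against 59.6, 48.3 and 75.2 CPM in mPFC (log2 fold change 1.11 ± 0.18 SE, adjusted p = 0.0479, edgeR). Scn4b encodes a sodium channel beta subunit that supports the resurgent current of fast-firing neurons (chr9:45138395-45154152). It had 92.9, 76.9 and 51.3 CPM in OFC, against 19.4, 13.6 and 30.8 CPM in mPFC (log2 fold change 1.80 ± 0.30 SE, adjusted p = 0.0479, edgeR). OFC library 3 was the lowest and mPFC library 3 the highest of their groups for Scn4b, and the groups still did not overlap.

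Pde8b encodes a high-affinity cyclic AMP phosphodiesterase, which ends cyclic AMP signals (chr13:95024454-95250336). It was the smallest of the 5 rises, with 107, 116 and 103 CPM in OFC, against 62.1, 67.7 and 57.1 CPM in mPFC (log2 fold change 0.80 ± 0.13 SE, adjusted p = 0.0479, edgeR). Plcxd2, which encodes a protein with a phospholipase C X domain (chr16:45959263-46010218), had 111.5, 103 and 83.9 CPM in OFC, against 46.0, 45.0 and 51.4 CPM in mPFC (log2 fold change 1.07 ± 0.18 SE, adjusted p = 0.0479, edgeR). Tmem215, a gene for a transmembrane protein (chr4:40472180-40477168), had 20.2, 30.6 and 22.5 CPM in OFC, against 3.85, 7.26 and 8.35 CPM in mPFC (log2 fold change 1.92 ± 0.28 SE, adjusted p = 0.0338, edgeR). Every OFC library was above every mPFC library in all 3. Of the 12 fits that each left out 1 library, Tmem215 passed in 7, Vamp1 and Plcxd2 in 5, and Scn4b and Pde8b in 4.

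**Figure D2:**
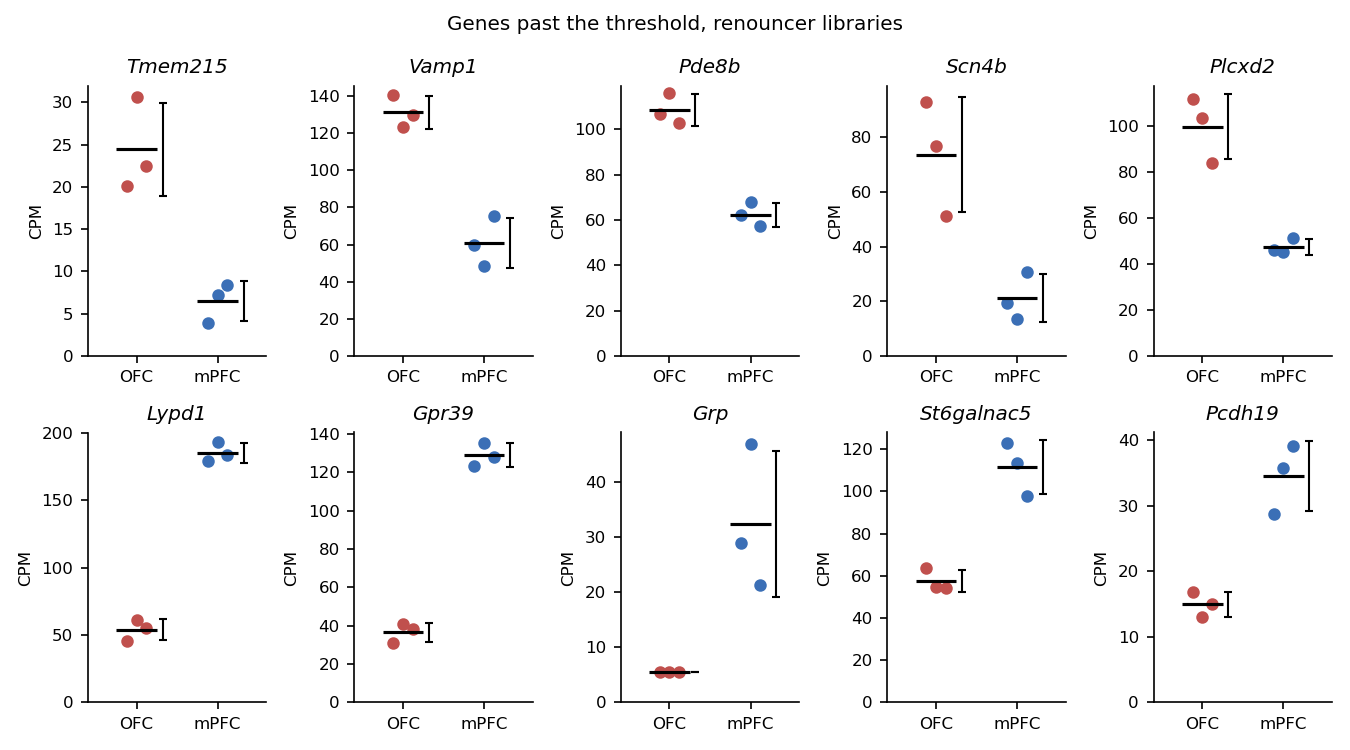
Level (CPM, linear axis from 0) of the 10 genes past the threshold in the 6 renouncer libraries. Points are libraries (OFC left, mPFC right, 3 each), lines the mean and bars the SD. In each gene the 2 groups are apart; Grp has its 3 OFC libraries near 5.48 CPM.

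The threshold cuts through a run of genes with similar values. The first gene outside it was Aldh1a1, which encodes a retinaldehyde dehydrogenase that makes retinoic acid. It had 81.5, 121 and 102 CPM in OFC, against 11.3, 7.65 and 34.4 CPM in mPFC (log2 fold change 2.51 ± 0.43 SE, adjusted p = 0.0555, edgeR). Its fold change was larger than that of every called gene but Grp, and its mPFC libraries spread more widely, with library 3 the highest. C1ql3, for a secreted protein that bridges synapses, and Kcng4, for a modulatory potassium channel subunit, had log2 fold changes of -0.84 and 1.44 with an adjusted p of 0.0581 each by edgeR. At a threshold of 0.1, 33 genes passed.

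The perseverer libraries give the same contrast in other tissue, although both contrasts share 1 estimate of spread over the 12 libraries. With the 6 renouncer libraries fitted alone, Pde8b (adjusted p = 0.0756, edgeR) and Scn4b (adjusted p = 0.0682, edgeR) no longer passed. In perseverers, in the fit of all 12 libraries, 18 genes passed the test, or 0.12% of those tested. Of these, 9 were higher and 9 lower in OFC, and leaving out 1 library at a time gave between 5 and 36 genes. All 10 genes called in renouncers had the same sign in perseverers, in all 10 the 3 OFC libraries did not overlap the 3 mPFC libraries there either, and 8 of the 10 passed the test there. The other 2 were Pde8b (log2 fold change 0.72, adjusted p = 0.0518, edgeR) and St6galnac5 (log2 fold change -0.70, adjusted p = 0.095, edgeR). For comparison, 486 of the 15025 genes tested had the same non-overlapping order in both phenotypes. The Lypd1 level was 46.6, 59.7 and 61.5 CPM in perseverer OFC, against 163, 166 and 169 CPM in perseverer mPFC, close to the renouncer values. Grp had 3.82, 4.34 and 2.66 CPM in perseverer OFC, against 30.4, 24.1 and 28.7 CPM in perseverer mPFC.

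The 10 genes that passed in perseverers and not in renouncers all had the same sign in renouncers, where their OFC and mPFC libraries did not overlap. Nos1, the neuronal nitric oxide synthase, marks a sparse class of interneuron with long axons. Its level was 7.65, 10.2 and 7.42 CPM in renouncer OFC, against 17.5, 20.98 and 16.5 CPM in renouncer mPFC (log2 fold change -1.12 ± 0.22 SE, adjusted p = 0.0852, edgeR), and its log2 fold change in perseverers was -1.79 ± 0.22 (SE, adjusted p = 0.0036, edgeR). Its difference between the phenotypes had an unadjusted p of 0.0476 in the edgeR fit. Aldh1a1 had a log2 fold change of 2.50 in perseverers, next to 2.51 in renouncers, and Kcng4 1.57 next to 1.44.

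No gene was shown to differ in its region effect between renouncers and perseverers. The test of that difference called 0 of 15025 genes, 0% of those tested, with a smallest adjusted p of 0.99999 by edgeR. An unadjusted p under 0.05 was found for 225 genes, and both DESeq2 and limma also called 0. For the 10 genes called in renouncers the unadjusted p of the difference ran between 0.175 and 0.981. The estimates still leave room for differences in size: that of Vamp1, renouncers minus perseverers, was -0.35 ± 0.25 (SE) on the log2 scale, and that of Grp 0.37 ± 0.38. Across the 8461 genes with a mean log2 CPM above 4, the 2 log2 fold changes had a Pearson r of 0.714 and a Spearman rho of 0.634, and across all 15025 genes tested 0.397 and 0.430. These are correlations across genes, which are not independent replicates, and all 12 libraries share kit and line.

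**Figure D3:**
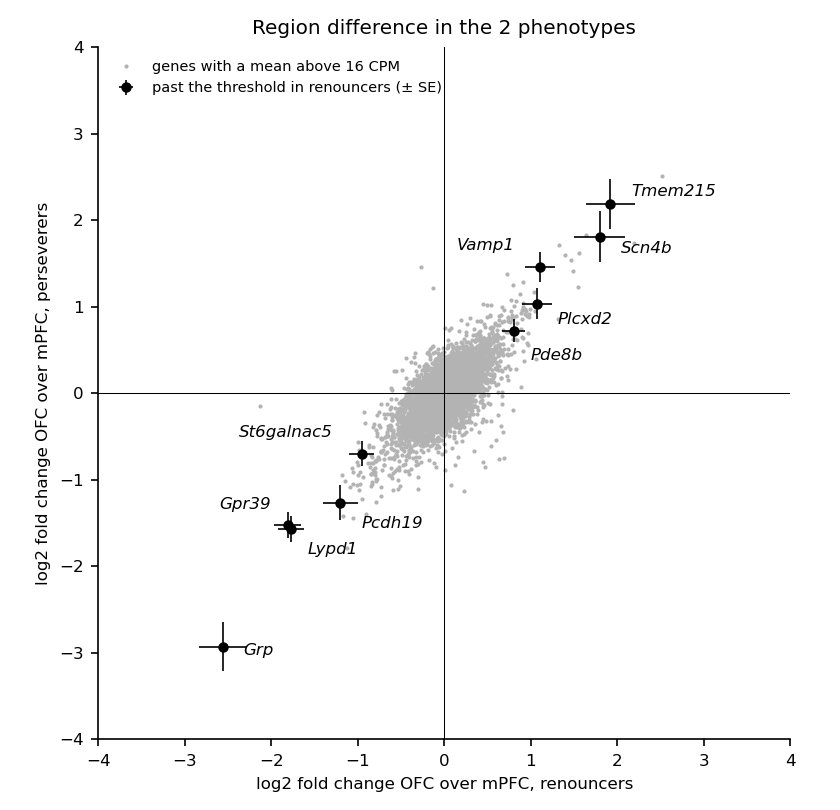
Log2 fold change of OFC over mPFC in renouncers (x axis) and perseverers (y axis). Grey points are genes with a mean level above 16 CPM, black points the 10 genes past the threshold in renouncers, with bars for ± 1 SE. All 10 have the same sign on both axes, with Grp at -2.56 and -2.93 and Tmem215 at 1.92 and 2.18.

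Genes of 43 lists were then read for the regions' known differences. The lists hold 997 genes, of which 954 were tested and 5 passed: Grp, Vamp1, Scn4b, Pde8b and Pcdh19. Over all genes tested 10 of 15025 passed, or 0.0666%. The lists were chosen with earlier results of these data known, so the number of called genes in them is not a result about the lists. Over all genes tested, the median log2 fold change was -9.6e-05 and 50.0% were positive. All 3 OFC libraries lay above all 3 mPFC libraries in 6.08% of the genes tested, and below them in 6.52%. The renouncer counts of each list below are given against these shares. No such share was taken for perseverers alone, so their counts stand without one. The dissections are bulk tissue, so fewer cells of a type and less RNA per cell cannot be told apart.

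Activity-induced genes, which neurons switch on within minutes of firing, had a median of -0.38, with 23 of 28 negative. None passed the test. All 3 OFC libraries lay below mPFC in 9 of the 28 and above it in 0. Nr4a3, an orphan nuclear receptor, had 8.98, 7.21 and 10.99 CPM in OFC, against 18.6, 20.8 and 13.7 CPM in mPFC (log2 fold change -0.96, adjusted p = 0.208, edgeR). Bdnf, a neurotrophin, had 39.2, 34.4 and 38.1 CPM in OFC, against 66.3, 69.9 and 60.7 CPM in mPFC (log2 fold change -0.82, adjusted p = 0.327, edgeR).

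Other members of the list, chosen after their values were seen, show how uneven it was. Npas4, a transcription factor of active neurons, had 10.4, 4.18 and 5.96 CPM in OFC, against 22.6, 18.1 and 10.8 CPM in mPFC. Egr4, of the early growth response family, had 80.3, 54.8 and 55.0 CPM in OFC, against 120, 163 and 97.2 CPM in mPFC. Arc, which acts in dendrites on glutamate receptors, went the other way with a log2 fold change of 0.60, and Fos had -0.44 with overlapping groups. In perseverers the median of the list was -0.35 with 22 of 28 negative, and leaving out 1 library at a time kept the renouncer median between -0.54 and -0.30.

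Interneuron class markers had a median of -0.30, with 19 of 24 negative, none past the test and 5 not overlapping, all lower in OFC. Sst, the peptide somatostatin of dendrite-targeting interneurons, had 307, 298 and 317 CPM in OFC, against 448, 423 and 621 CPM in mPFC (log2 fold change -0.70, adjusted p = 0.187, edgeR). Pvalb, the calcium buffer of fast-firing interneurons, was on the other side with 106, 168 and 224 CPM in OFC, against 50.5, 40.8 and 151 CPM in mPFC (log2 fold change 1.04, adjusted p = 0.663, edgeR), and its groups overlapped. Pvalb was chosen after its values were seen. The median was -0.19 without OFC library 2. In perseverers it was -0.30, with 1 member above and 1 below mPFC in all libraries, and Sst had a log2 fold change of -0.24 there.

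Of 52 neuropeptide and peptide receptor genes, 1 passed (Grp, lower in OFC), 34 were negative and the median was -0.28, or -0.17 without mPFC library 3. All OFC libraries were below mPFC in 12 and above it in 2. Tac1, which encodes substance P and neurokinin A, had 32.1, 23.7 and 35.0 CPM in OFC, against 62.8, 33.0 and 75.6 CPM in mPFC. The 2 members above mPFC were Penk, which encodes the enkephalin precursor (log2 fold change 0.58), and Cartpt, which encodes the CART peptide (0.47), both named after their values were seen.

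Channel genes had medians near 0. Of 39 voltage-gated potassium channel genes none passed, 24 were positive, and in 6 all OFC libraries were above mPFC, with 0 the other way. Their median was 0.07 and ran between -0.012 and 0.18 with 1 library left out, highest without mPFC library 2. Kcna2, a Kv1 subunit of axons, had 129, 108 and 111.8 CPM in OFC, against 90.9, 74.4 and 77.3 CPM in mPFC (log2 fold change 0.53, adjusted p = 0.352, edgeR). Of 29 sodium, calcium and HCN channel genes 1 passed (Scn4b), 16 were positive and the median was 0.01. Of 36 synaptic vesicle and active zone genes 1 passed (Vamp1) and 22 were negative, with OFC above mPFC in 7 and below it in 3. Among the 7 was Syt2, a calcium sensor of fast release, with 25.7, 11.8 and 16.95 CPM in OFC, against 3.37, 3.55 and 11.5 CPM in mPFC (log2 fold change 1.58, adjusted p = 0.514, edgeR), named after its values were seen.

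Receptors of the main transmitters held no called gene. Of 24 ionotropic glutamate receptor genes none passed and 14 were negative, with a median of -0.16 that was -0.045 without mPFC library 1. Grik4, a kainate receptor subunit, had 16.8, 12.2 and 16.3 CPM in OFC, against 27.9, 31.2 and 27.6 CPM in mPFC (log2 fold change -0.93, adjusted p = 0.161, edgeR). Gria1, an AMPA receptor subunit, had a log2 fold change of -0.50. None of 15 GABA receptor, 10 dopamine system, 12 serotonin, 8 adrenergic or 12 acetylcholine receptor genes passed. Lynx1, a Ly6 relative of Lypd1 that also binds nicotinic receptors, had 340, 360 and 297 CPM in OFC, against 177, 121 and 204 CPM in mPFC (log2 fold change 0.99, adjusted p = 0.29, edgeR), the opposite side to Lypd1.

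Of 26 cadherins and protocadherins 1 passed (Pcdh19), and all OFC libraries were below mPFC in 8 and above it in 1, around a median of -0.07 that ran between -0.24 and 0.036 as 1 renouncer library at a time was left out, lowest without OFC library 1. Among the 8, named after their values were seen and not past the test, Pcdh8 had a log2 fold change of -1.17, Cdh13 of -0.96 and Pcdh17 of -0.86. Of 47 synaptic adhesion genes none passed, 34 were negative, and all OFC libraries were above mPFC in 3 and below it in 6. Their median was -0.16, and -0.042 without mPFC library 2. Cbln2, a secreted organiser of synapses, was on the higher side with 113, 103 and 105 CPM in OFC, against 59.2, 70.7 and 66.5 CPM in mPFC (log2 fold change 0.71, adjusted p = 0.171, edgeR).

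Layer markers and transcription factors held no called gene in the fit of all 12 libraries. Upper-layer markers had a median of 0.29 with 9 of 15 positive, and deep-layer markers a median of 0.01 with 11 of 21 positive. Cux1, a homeobox factor of upper layers, had 90.0, 113 and 84.4 CPM in OFC, against 67.0, 61.0 and 66.7 CPM in mPFC (log2 fold change 0.56, adjusted p = 0.396, edgeR). Wfs1, another gene of that list, had 95.6, 78.6 and 89.2 CPM in OFC, against 178, 208 and 161 CPM in mPFC (log2 fold change -1.05, adjusted p = 0.434, edgeR). It passed with the 6 renouncer libraries fitted alone (adjusted p = 0.0453, edgeR). Of 43 area patterning factors 21 were positive, with a median of 0.00.

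**Figure D4:**
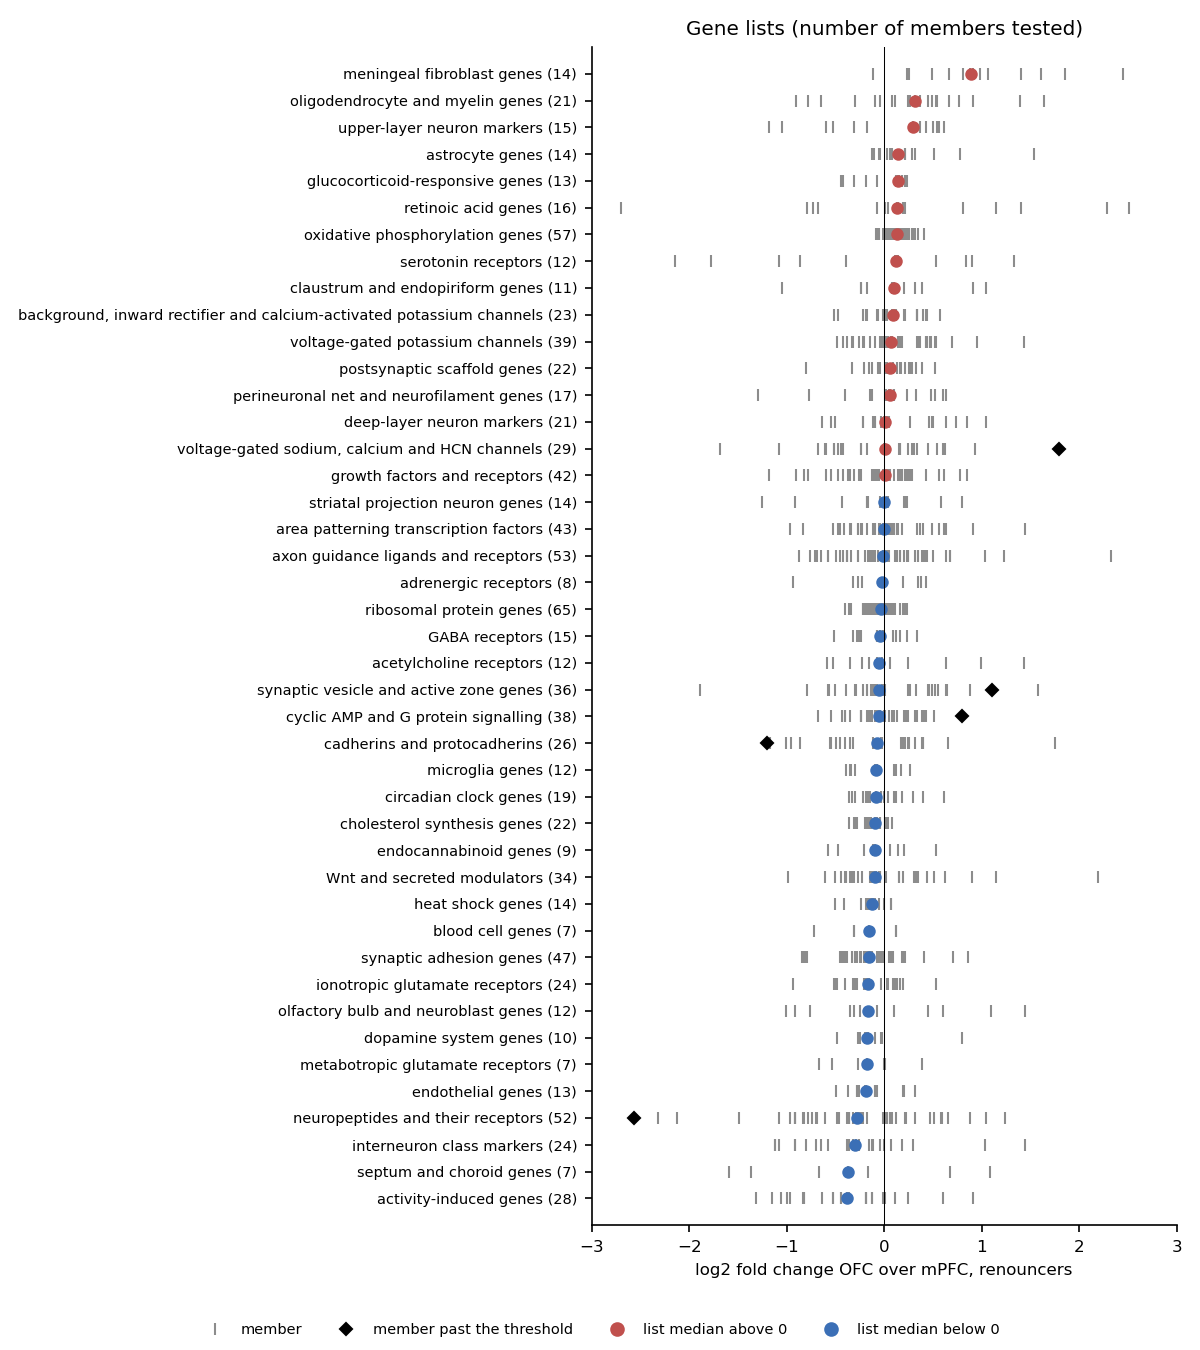
Log2 fold change of OFC over mPFC in renouncers for the tested members of 43 gene lists, ordered by median. Ticks are members, circles the list median and diamonds the 5 members past the threshold; medians run between -0.38 for activity-induced genes and 0.89 for meningeal genes, and most lie near 0.

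Among glial and non-neural markers in renouncers, oligodendrocyte and astrocyte sums did not overlap between the regions. The sums of microglia, endothelium, meninges and red cells did. So did the astrocyte sums once Gfap, an astrocyte filament gene, was left out. In perseverers the oligodendrocyte and astrocyte sums overlapped as well. Summed over 7 oligodendrocyte markers, among them the myelin genes Mbp and Mobp, the level was 8262, 13017 and 15063 CPM (lowest, median and highest) in OFC, against 2777, 4228 and 8189 CPM in mPFC, with all 7 markers positive. The lowest OFC library was just above the highest mPFC library. Perseverer sums were 5731, 14491 and 20410 CPM in OFC, against 2079, 5000 and 7094 CPM in mPFC. None of the 21 genes of the wider oligodendrocyte list passed the test, 15 were positive, and their median was 0.32 in renouncers and 0.62 in perseverers. The renouncer median was 0.96 without mPFC library 3 and otherwise no lower than 0.17 with 1 library left out. Mbp itself had 5207, 8300.3 and 9943 CPM in OFC, against 2550.1, 1501 and 4866 CPM in mPFC (log2 fold change 1.39 ± 0.54 SE, adjusted p = 0.639, edgeR).

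Astrocyte markers summed to 6577, 6621 and 8258 CPM in OFC, against 6094, 6207 and 6491 CPM in mPFC, with 5 of the 7 markers positive. The lowest OFC sum and the highest mPFC sum were those of library 1 of each region. Their margin was smaller than the Gfap gap between those libraries (339 against 155 CPM), so without Gfap the sums overlap. Besides Gfap, Aldh1l1 did not overlap between the regions, and the other markers each did. In perseverers the sums were 6952, 7139 and 9785 CPM in OFC, against 5491, 5799 and 8042 CPM in mPFC. The wider list of 14 astrocyte genes had 10 positive and a median of 0.15 in renouncers, with none past the test and Gfap the highest. Gfap, the astrocyte filament protein, had 339, 616 and 271 CPM in OFC, against 155, 118 and 148 CPM in mPFC (log2 fold change 1.54 ± 0.32 SE, adjusted p = 0.116, edgeR). Striatal projection neuron markers summed to 344, 355 and 362 CPM in OFC, against 266, 279 and 323 CPM in mPFC. In perseverers these sums were 323, 344 and 357 CPM in OFC, against 234, 272 and 296 CPM in mPFC. They did not overlap between the regions in either phenotype. Of the 10 striatal markers that were tested 5 were positive in renouncers. The wider list of 14 striatal genes had 7 positive there and a median of -0.0026. Septal markers summed to 132, 150 and 164 CPM in OFC, against 157, 177 and 198 CPM in mPFC. Microglia markers summed to 597, 612 and 804 CPM in OFC, against 633, 787 and 808 CPM in mPFC, and endothelial markers to 100.7, 110.5 and 116.9 CPM in OFC, against 96.3, 119.8 and 141.6 CPM in mPFC. The part of any of these cell types in the differences of the 10 genes was not tested.

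Meningeal markers set 1 library apart. They summed to 39.6, 60.6 and 256 CPM in OFC, against 52.6, 53.6 and 85.2 CPM in mPFC, and the highest value was that of OFC library 2. Decorin (Dcn), a matrix protein of meningeal fibroblasts, had 10.7, 59.7 and 4.17 CPM in OFC, against 3.55, 4.02 and 6.09 CPM in mPFC. The median of 14 meningeal genes was 0.89 with 13 positive and none past the test; without OFC library 2 it was 0.01, and in perseverers it was -0.28. Claustrum markers summed to 494, 538 and 872 CPM in OFC, against 593, 616 and 822 CPM in mPFC, and olfactory bulb markers to 39.4, 47.6 and 49.7 CPM in OFC, against 37.7, 40.05 and 42.5 CPM in mPFC. Haemoglobin genes took 0.0528% ± 0.0260 of the counts in OFC and 0.0533% ± 0.0220 in mPFC (SD, n = 3 each), with p = 1 in a two-sided exact permutation test that cannot go below 0.1.

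**Figure D5:**
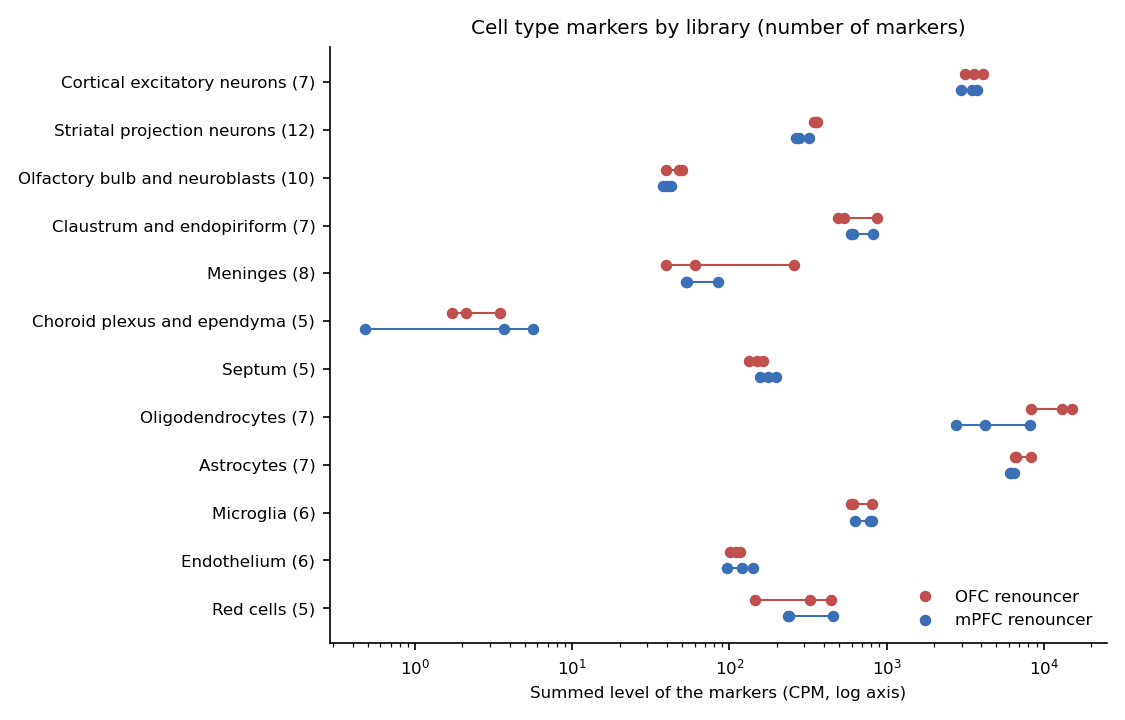
Summed level (CPM, log axis) of the markers of 12 cell types in the 3 OFC (upper) and 3 mPFC (lower) renouncer libraries; lines join the lowest and highest library. Oligodendrocyte sums lie between 8262 and 15063 CPM in OFC and between 2777 and 8189 CPM in mPFC, while cortical excitatory sums overlap.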

How the data were processed

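The 12 cortical dissections after oDASS were used, and the 5 imprint samples taken before it were not used here. RNA was made into libraries with SMART-Seq v4 and Nextera kits, per the labels' protocols. The authors deposited raw counts per gene, 1 table for OFC and 1 for mPFC, each with a column of gene lengths used here only to check for a length trend. That trend is the Spearman rho of gene length with a library's deviation from the mean of the 12. Renouncers had 0.287, -0.294 and -0.397 in OFC, against -0.0496, -0.118 and -0.376 in mPFC. The regions gave p = 0.9 in a two-sided exact permutation test that cannot go below 0.1. Perseverers had 0.182, 0.396 and -0.0144 in OFC, against 0.283, 0.312 and -0.0299 in mPFC. The genome build was mm10 and FastQC 0.11.8 was used, per the submitters' processing notes; the sources used here name no aligner, counter or annotation.

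The 2 tables list the same 25239 genes and were joined. Because each region has its own table, any step that differed between them cannot be told apart from region. Genes were filtered with filterByExpr, scaled by TMM and fitted with edgeR 4.0.16 (R 4.3.3, robust quasi-likelihood) as 4 groups of 3 libraries, which share 1 estimate of spread; the SE is the log2 fold change divided by the root of F. Alternatives used DESeq2 1.42.0 and limma 3.58.1, other scalings and filters, a replicate block and each library left out. No 2 libraries of a group were within sampling noise of each other. Replicate numbers were not taken to pair libraries. Of the identifiers, 96.5% matched GENCODE symbols.

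Genes named are the 15 per direction with the smallest p past the threshold (filled to 5), list members past the threshold or otherwise the 2 with the smallest p, and the 5 per direction with the smallest p for the other 2 contrasts; others are marked as chosen after seeing values or stand next to the threshold. Genes with only clone-type names were counted and not named. The comparison and the lists were chosen with earlier results of these data known. Library totals limit counting precision; intervals between libraries come from the fit.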

Additional observations from a re-analysis of the deposited data

Results flagged for a closer look

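Of the genes named for the difference between phenotypes, 5 had every OFC library on one side of every mPFC library in renouncers and on the other side in perseverers. Over all genes tested, 6 were above mPFC in renouncers and below it in perseverers, and 10 the other way, against 486 with the same order in both. None of the 5 passed the test of the difference, each with an adjusted p of 0.99999 by edgeR, and the cause was not tested.

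Gcn1, an activator of the stress kinase GCN2, had 35.3, 29.2 and 30.5 CPM in renouncer OFC, against 25.2, 27.9 and 16.4 CPM in renouncer mPFC. In perseverers it had 25.4, 28.6 and 26.7 CPM in OFC, against 44.4, 48.8 and 47.1 CPM in mPFC. The perseverer mPFC libraries stood above the other 9, and the region difference, renouncers minus perseverers, was 1.25 ± 0.26 on the log2 scale (SE, unadjusted p = 0.00029, edgeR). That difference was 1.01 for Rrp12, a ribosome assembly factor, and 1.15 for Egfr, the epidermal growth factor receptor. It was -3.02 for Lama3, a laminin chain, and -2.44 for Cdk2, a cell cycle kinase, both at levels under 5 CPM in every library.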

How the results depend on the processing

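In renouncers 10 genes passed; 109 passed with DESeq2, 22 with limma voom, 26 with no filter on low counts, 33 at a threshold of 0.1, 143 with the replicate block and 28 with the block in the 6 renouncer libraries alone. Each of these but the last held all 10 genes, and that one held 9. With the 6 renouncer libraries alone and no block, 15 passed, 8 of them shared. In perseverers, against 18, the counts were 147 with DESeq2, 721 with limma voom, 43 at a threshold of 0.1 and 219 with the block. Of the list genes, against 5, there were 3 with upper-quartile scaling, 29 with DESeq2, 8 with limma voom, 9 at 0.1, 50 with the block and 8 with the block in renouncers alone. The difference between phenotypes called 0 in every setting.

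Leaving out 1 library gave 3 to 31 genes in renouncers, 5 to 36 in perseverers and 1 to 8 list genes; 31 came without mPFC perseverer library 3 and 36 without mPFC renouncer library 3. Lypd1, Gpr39 and Grp passed in all 12 of these fits and all 10 other settings. The haemoglobin share, -0.000499 percentage points between regions, ran between -0.0126 and 0.0133 (without OFC renouncer library 1) and was 0.0122 without mPFC renouncer library 3. Sign changed for Hba-a1 (-0.62 to 0.074, the last without mPFC renouncer library 3), Kl (0.25 with limma voom) and Smco3 (-0.28 to 0.031, the last without OFC renouncer library 1), none past the threshold. Over the named genes, 1948 values kept sign and call, 68 gained and 58 lost the call, and 3 changed sign; the cause was not tested.

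Same-numbered renouncer libraries had correlations of 0.256, -0.0983 and 0.452 in their deviations from the group means, and only OFC library 3 matched its own number best. In perseverers they were 0.236, 0.727 and 0.736, and each OFC library matched its own number best, a hint from the data and not the design. Same-numbered OFC and mPFC libraries also carry adjacent sample numbers in the labels, which do not say what those numbers mark. As 1 of the renouncer values was below 0.1 and the labels tie no number to an animal, the number was not taken as a pairing. If it does mark a pairing, the main fit leaves that pairing out. With 3 libraries a group, 7 of the 10 calls ended in some of these fits, which limits what can be said of them one by one.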

Other observations

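One gene had at least 10 counts in each renouncer OFC library and 0 in all 3 mPFC libraries, and no gene had the reverse. It was Tfap2d, a transcription factor of the AP-2 family, with 33, 22 and 73 counts in OFC and 0, 0 and 0 in mPFC. Perseverers gave 53, 22 and 49 counts in OFC and again 0, 0 and 0 in mPFC. Against a limit of 3 counts over the 3 renouncer mPFC libraries, or 0.0713 CPM, the mean level in OFC was 37.1 times as high. That mean of 2.64 CPM was raised by library 3, with 1.51, 1.59 and 4.83 CPM in the OFC libraries. The ratio takes no account of this spread. Tfap2d did not pass the test (adjusted p = 0.0581, edgeR), and it was chosen for this pattern.

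Retinoic acid genes held the widest spread of the lists, with 3 of 16 above and 3 below mPFC in all libraries and none past the test. Aldh1a3, a relative of Aldh1a1 that makes the same product, had 0.595, 1.08 and 0.265 CPM in OFC, against 1.81, 5.99 and 4.84 CPM in mPFC. Its log2 fold change was -2.69 (adjusted p = 0.361, edgeR), opposite in sign to the 2.51 of Aldh1a1. Rspo1, a secreted enhancer of Wnt signals, had 8.79, 16.4 and 8.48 CPM in OFC, against 4.34, 7.81 and 3.04 CPM in mPFC. Of 57 oxidative phosphorylation genes 49 were positive, and all OFC libraries were above mPFC in 1 of them. Their median was 0.13 and ran between -0.077 and 0.34 with 1 library left out, moved most by mPFC library 3, and in perseverers 44 were positive with a median of 0.07.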
